A study of Mus musculus with 2 samples.

Results

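The genes described here are 9 targets and feedback inhibitors of the kinase ERK, taken by symbol from a table of 19559 genes. They are the Sprouty genes Spry1, Spry2 and Spry4, the Spred genes Spred1 and Spred2, the phosphatase genes Dusp4 and Dusp6, and the ETS transcription factor genes Etv4 and Etv5. Each of the 9 symbols was found once in the table. RNA was sequenced from mouse embryos at stage E3.75, in days after conception, in 2 libraries, 1 of whole blastocysts and 1 of inner cell masses (ICMs) freed of the outer layer by immunosurgery, in which antibody and complement lyse the outer cells. The cross was of B6CBAF1 females with CD-1 males, with no mutant allele or treatment named in the labels. The sources used here do not give the number of embryos in a library. Reads on the genes of the table summed to 9271198 in the whole-blastocyst library and to 4125479 in the ICM library. There is 1 library of each kind and hence no replicate, so differences are given with counting intervals only and without p-values.

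ERK is the last kinase of the cascade that carries signals from fibroblast growth factor (FGF) receptors through Ras, Raf and MEK to the nucleus. Its activity induces transcription of its own inhibitors, which act at the level of Ras or on ERK itself, and so RNA of these genes is widely used as a readout of the pathway. In the mouse blastocyst, precursors of the epiblast secrete FGF4, neighbouring ICM cells respond by turning to primitive endoderm, and the outer trophectoderm, which forms part of the placenta, also depends on FGF and ERK. The ICM is also part of the whole-blastocyst sample, so ratios between the libraries do not compare inner with outer cells. The question is which of these transcripts differ between the 2 libraries. The libraries differ in handling as well as in their cells, since immunosurgery is given for the ICM library only. Handling and cell content differ together here, so their effects on these transcripts cannot be separated. Whether the libraries differ in anything further was not tested. In bulk RNA, fewer cells of a type and less RNA per cell cannot be told apart.

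Promoter windows of 6 of the 9 genes (Spry1, Spry2, Spred1, Spred2, Dusp6 and Etv5, which has 2 start sites) were taken from the RefSeq promoter table of build GRCm38.p6. Each window runs from 250 bases before the start site to 50 after it. Entries for Spry4, Dusp4 and Etv4 were not used here. Capicua, encoded by Cic, is a transcriptional repressor that ERK signalling inactivates, and it is known to bind the octamers TGAATGAA, TGAATGGA, TCAATGAA and TCAATGGA. Searched on both strands, these octamers occurred in 3.84% of all 32851 windows and in the windows of 2 of the 6 genes, Dusp6 and Spry2. Those windows, the ones with a match, are shown. Dusp6 was low in the ICM library. Spry2 was of like level in both libraries as the authors scaled them and higher in the ICM by other scalings given below. Capitals mark the octamers, which lie on the strand opposite to the one printed. In Dusp6 they begin 24 bases before the start site and at base 2 after it, and in Spry2 the octamer begins 54 bases before the start site. The windows are chr10:99262981-99263280 on the plus strand for Dusp6 and chr14:105896770-105897069 on the minus strand for Spry2.
Dusp6: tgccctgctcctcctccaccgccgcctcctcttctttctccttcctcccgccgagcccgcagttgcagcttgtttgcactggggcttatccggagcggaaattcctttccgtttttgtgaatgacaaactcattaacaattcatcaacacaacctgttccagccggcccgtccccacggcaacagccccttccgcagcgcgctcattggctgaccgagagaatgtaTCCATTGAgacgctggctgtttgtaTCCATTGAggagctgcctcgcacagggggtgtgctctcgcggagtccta
Spry2: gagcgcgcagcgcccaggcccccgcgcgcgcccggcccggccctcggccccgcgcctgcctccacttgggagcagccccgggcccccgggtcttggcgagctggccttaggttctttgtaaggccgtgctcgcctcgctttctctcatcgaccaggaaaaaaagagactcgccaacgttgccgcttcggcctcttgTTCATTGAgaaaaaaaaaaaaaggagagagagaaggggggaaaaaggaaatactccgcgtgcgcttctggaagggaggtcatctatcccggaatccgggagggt
The PEA3 site AGGAAG occurred in 3 of the 6 genes (Dusp6, Spred2 and Etv5) and in 35.4% of all windows. The ETS site CCGGAAGT (3.89% of all windows), the AP-1 site TGANTCA (7.81%) and the cyclic AMP response element TGACGTCA (1.79%) were found in the windows of none of the 6. A match describes the letters only, and no match says nothing about binding elsewhere.

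The 9 genes did not move together. Differences were taken as log2((ICM RPKM + 1)/(whole-blastocyst RPKM + 1)), where RPKM is the authors' read count scaled to gene length and to a library total, and a gene was called higher or lower past 2-fold. Ratios printed below are of RPKM without the added 1. A gene whose ratio passes 2-fold can therefore lie within 2-fold by the rule. By this rule Spry4, Spred1 and Etv5 were higher in the ICM library, Dusp4 and Dusp6 were lower, Spry1, Spry2 and Spred2 lay within 2-fold, and Etv4 was not measurable. A gene was measurable if its RPKM reached 1 in either library, and of the 8981 such genes 8.96% were higher and 44.0% were lower by the same rule. The 2 lower genes among the 8 measurable ones are thus not more than the background share. Of the 8, 5 reached an RPKM of 1 in both libraries, Spry4 and Spred1 reached it in the ICM alone, and Dusp6 in the whole blastocyst alone, so the last 3 could enter only with a difference in that direction. The summed RPKM of the 9 was 38.3 in whole blastocysts and 36.2 in ICMs.

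Because RPKM values of most genes were lower in the ICM, each difference was also taken as its distance from the median of the 3013 genes whose RPKM reached 5 in each of the libraries, which was -0.66. A ratio printed alone is as deposited. On this centred scale 16.9% of all genes were higher by the 2-fold rule and 20.5% were lower. Among the 8 measurable genes 3 were higher, 1 was lower and 4 were within 2-fold. Centring multiplies every ratio of ICM to whole blastocyst by 1.58.

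**Figure D1:**
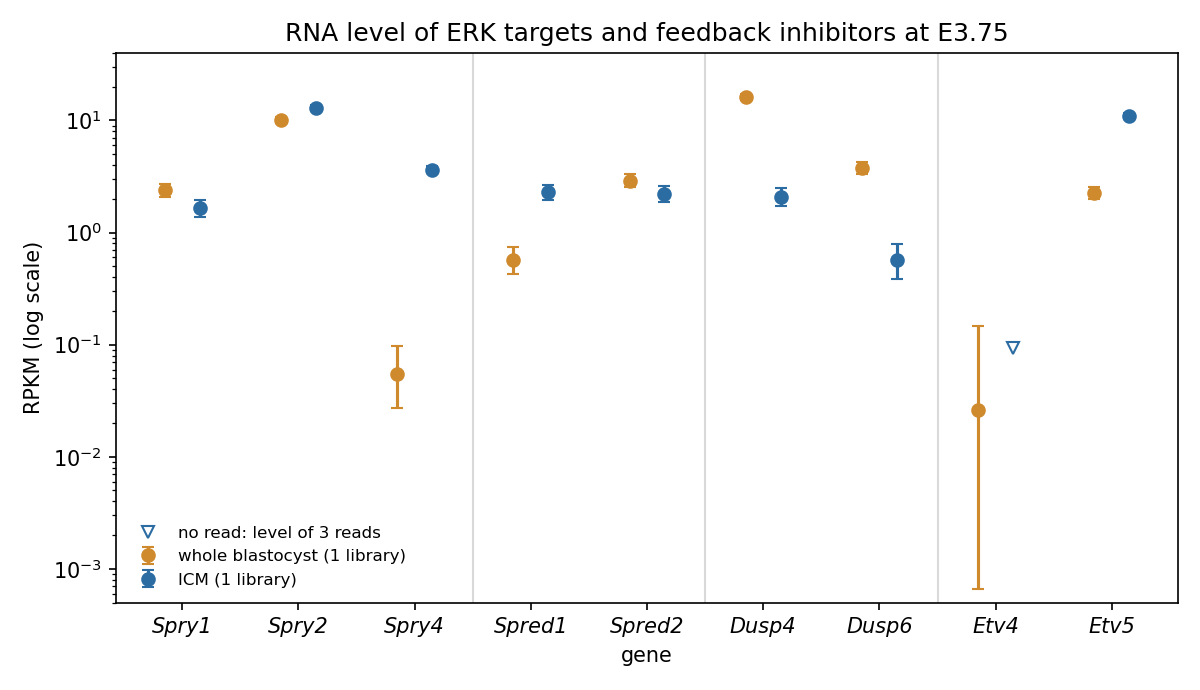
RPKM (log scale) of each of the 9 genes in the whole-blastocyst library (orange) and the ICM library (blue), with exact 95% Poisson counting intervals, and an open triangle at the level of 3 reads where no read was found. Spry4, Spred1 and Etv5 lie higher in the ICM, at 3.65, 2.28 and 10.9, and Dusp4 and Dusp6 lie lower, at 2.10 and 0.566.

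Sprouty proteins sit at the cell membrane and dampen the signal from receptor tyrosine kinases to Ras. Spry4 had 11 reads in whole blastocysts and 621 in ICMs, an RPKM of 0.0544 and 3.65. It was thus close to undetected in the library that includes the outer cells and among the 3 highest of the 9 genes in the ICM. The ratio was 67.01 (95% counting interval 37.2 to 135), and 169 of the 8981 measured genes had a larger difference. The share of inner cells in whole blastocysts was not measured, so how far cell content alone could yield this ratio was not tested. Spry2 had 846 and 904 reads, an RPKM of 10.1 and 12.9. It was the Sprouty gene with the highest level per length in either library, and its ratio was 1.27 (1.15 to 1.39), or 2.001 (1.82 to 2.20) relative to the median. Spry1 had 220 and 127 reads, an RPKM of 2.39 and 1.64. Its ratio was 0.685 (0.546 to 0.856) as deposited and 1.08 (0.862 to 1.35) relative to the median, so the side on which Spry1 lies depends on the scaling.

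Ratios between genes within a library do not depend on the scaling between libraries. Spry4 stood at 0.00537 of the Spry2 level in whole blastocysts and at 0.284 in ICMs, a shift of 52.8-fold (29.01 to 107). Against Spry1 it stood at 0.0227 and 2.22, a shift of 97.8-fold (51.3 to 203). The order of these 2 genes was thus opposite in the libraries, with Spry1 above Spry4 in the whole blastocyst and below it in the ICM. Spry1 relative to Spry2 was 1.85-fold lower in the ICM (1.45 to 2.37). By RPKM, Spry4 made up 0.432% of the summed level of the 3 Sprouty genes in whole blastocysts and 20.1% in ICMs, while Spry2 made up 80.5% and 70.9%. The summed level was 12.6 and 18.1.

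Spred proteins bring neurofibromin, a protein that switches Ras off, to the membrane. Spred1 had 52 reads in whole blastocysts and 176 in ICMs, an RPKM of 0.568 and 2.28. It was higher in the ICM by 4.02-fold (2.93 to 5.59), and its log2 difference of 1.07 lay just past the 2-fold line. Spred2 had 236 and 151 reads, an RPKM of 2.90 and 2.20. Its ratio was 0.759 (0.615 to 0.936) as deposited and 1.20 (0.970 to 1.48) relative to the median, so Spred2, like Spry1, lay on either side by scaling. In the whole blastocyst Spred2 was the more abundant of the pair, with 83.6% of their summed RPKM. In the ICM the pair was level by the deposited RPKM, with Spred1 at 50.9%. The Spred1 to Spred2 ratio differed 5.29-fold between the libraries (3.60 to 7.82).

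The phosphatases reverse the activation of ERK directly. Dusp4 encodes a nuclear and Dusp6 a cytoplasmic enzyme that removes the activating phosphates from ERK. Dusp4 had 1091 reads in whole blastocysts and 119 in ICMs, an RPKM of 16.2 and 2.10. It was the highest of the 9 genes in the whole blastocyst by the deposited RPKM and was lower in the ICM by 7.72-fold (6.39 to 9.41). Dusp6 had 252 and 32 reads, an RPKM of 3.752 and 0.566. It was lower by 6.63-fold (4.58 to 9.91). On the centred log2 scale, with its pseudocount of 1, its difference was -0.94, within 2-fold, while Dusp4 stayed past it at -1.82. Without the pseudocount the ratios relative to the median were alike, at 0.238 (0.159 to 0.344) for Dusp6 and 0.204 (0.168 to 0.247) for Dusp4. The pair kept nearly the same proportion, with Dusp6 at 0.232 of the Dusp4 level in whole blastocysts and 0.270 in ICMs, a ratio of 1.16 whose interval includes no change (0.744 to 1.78). Among all measured genes 630 had a lower difference than Dusp4 and 1982 a lower one than Dusp6.

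Etv4 and Etv5 encode ETS transcription factors of the PEA3 group, which ERK signalling both induces and activates. Etv5 had 243 reads in whole blastocysts and 986 in ICMs, an RPKM of 2.27 and 10.9. It was level with Spry1 in the whole blastocyst within counting error and had the second highest level in the ICM, with a ratio of 4.82 (4.18 to 5.57), and 233 measured genes had a larger difference. Etv4 had 1 read in whole blastocysts and none in ICMs. Its RPKM was 0.0262 in the former, and 3 reads in the ICM would be an RPKM of 0.0933, so at this depth Etv4 was not detectable above that level and no fold is given. Etv1, the remaining gene of the PEA3 group, had 5 and 0 reads, so Etv5 was the PEA3 gene with appreciable RNA in these libraries.

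**Figure D2:**
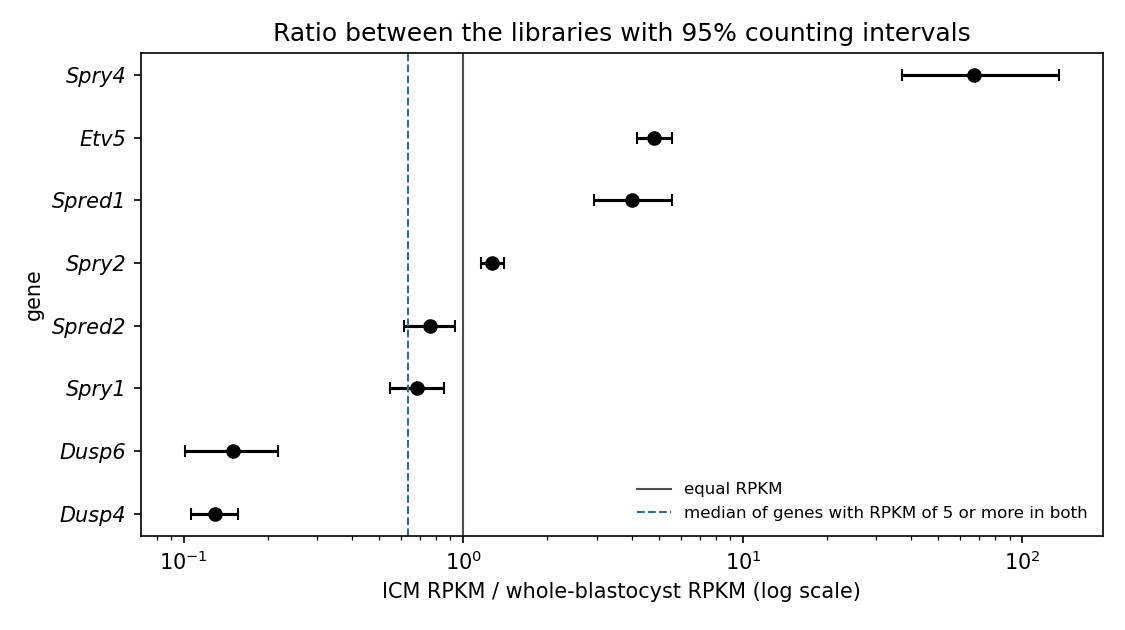
Ratio of ICM to whole-blastocyst RPKM (log scale) for the 8 measurable genes with exact conditional 95% counting intervals from the reads, where the solid line marks equal RPKM and the dashed line the median gene used for centring. Spry4 (67.01), Etv5 (4.82) and Spred1 (4.02) lie to the right of both lines, Dusp6 (0.151) and Dusp4 (0.129) to the left, and the intervals of Spry1 and Spred2 take in the dashed line.

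The order of the genes by RPKM differed between the libraries. In the whole blastocyst it ran Dusp4, Spry2, Dusp6, Spred2, Spry1, Etv5, Spred1, Spry4 and Etv4. Neighbours in this order differed beyond counting error except Spry1 and Etv5 (ratio 1.05, 0.875 to 1.27) and Spry4 and Etv4. In the ICM it ran Spry2, Etv5, Spry4, Spred1, Spred2, Dusp4, Spry1, Dusp6 and Etv4. There Spry2 exceeded Etv5 by 1.18-fold (1.07 to 1.29), whereas Spred1, Spred2, Dusp4 and Spry1 followed each other with neighbour ratios of 1.03 to 1.28 whose intervals all included 1. Levels between genes depend on the length behind RPKM. The deposited values give Spred1 a length 1.10 times that of Spry2, whereas its longest transcript in GENCODE M21 has 6016 bases and that of Spry2 2087, a ratio of 2.88. With the longest GENCODE transcripts, an alternative chosen after seeing the data, Spry2 and Dusp4 were level in the whole blastocyst (10.1 and 9.96). On that basis Spry2, Etv5 and Spry4 remained the 3 highest in the ICM, and Spry1 followed them there. Spred2 then lay above Spred1 in the ICM (1.01 and 0.868). In the whole blastocyst Spred2 (1.33) then lay below Spry1 (1.98) and Etv5 (1.53). Ratios between the libraries are the same with either length.

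**Figure D3:**
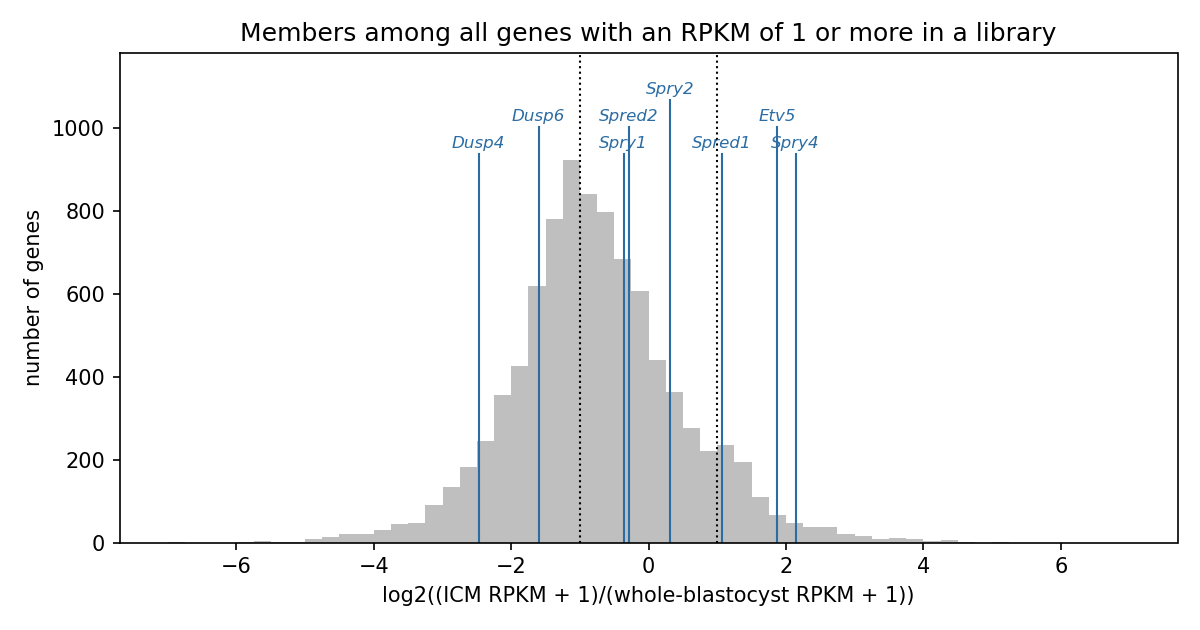
Histogram of the log2 difference between ICM and whole-blastocyst RPKM (pseudocount 1) over the 8981 measurable genes, with the 8 measurable genes as blue lines and dotted lines at 2-fold. Most genes lie left of 0, with a median of -0.84, and the 8 genes spread from -2.47 (Dusp4) to 2.14 (Spry4).

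Cell type markers were checked in each library. All 10 trophectoderm markers were at least 2-fold lower in the ICM library (9 relative to the median), and Elf5 and Krt7 had no ICM read. The summed RPKM of the 10 was 1696 in whole blastocysts and 54.9 in ICMs (3.24%). Krt18 alone gave 1418 and 29.4 of these sums, so the 3.24% rests mainly on this gene. Dusp4 and Dusp6 lay on the same side as the trophectoderm markers. Their ratios of 0.129 and 0.151 compare with 0.0208 (Krt18) to 0.143 (Tfap2c, listed as Tcfap2c) among the 8 markers with an ICM read, and the part of the outer layer in their difference was not tested. Of 7 epiblast markers 6 were higher by the 2-fold rule (summed RPKM 43.2 and 270.1), all but Sox2 (2.47 and 3.60). Of 7 measurable primitive endoderm markers 6 were higher (40.2 and 196.4 over 8 genes). By the same rule 8.96% of all genes were higher and 44.0% lower. Both lists thus lay mostly on the side of Spry4, Spred1 and Etv5. Gata6 of the primitive endoderm list did not, with an RPKM of 31.2 and 22.7 and a ratio of 0.727 (0.674 to 0.783). Sox7 of the latter list had 0 and 3 reads. Since the ICM library mixes both inner lineages, these data do not say in which of them the 3 genes were expressed. Of 7 cumulus and uterine markers 4 were measurable, with a summed RPKM of 44.1 and 3.85, Cyp11a1 had no ICM read and Cyp19a1 no whole-blastocyst read. No blood marker of 5 had more than 4 reads in a library, and Hbb-b1 and Lyz2 had none.

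The other genes of the pathway also went both ways. Of 73 genes on 7 lists, 72 were in the table and 47 were measurable. In the ICM 5 of these were at least 2-fold higher (10.6%), 20 were lower (42.6%) and 22 were within 2-fold, and the first 2 shares are close to the 8.96% and 44.0% of all genes. Relative to the median 11 were higher (23.4%), 14 were lower (29.8%) and 22 were within 2-fold, where all genes gave 16.9% and 20.5%. The median difference of the 47 was -0.69.

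Upstream of Ras, the ligand Fgf4 was higher in the ICM. It had 29 and 219 reads, with RPKM values of 0.260 and 2.33, and a ratio of 8.96 (6.07 to 13.7). Pdgfa, the ligand of the PDGF receptor alpha, had an RPKM of 187.3 and 40.8, 4.59-fold lower (4.12 to 5.12), and Hbegf, a ligand of EGF receptors, had 225 reads and none, at least 63.2-fold lower against a floor of 3 reads. The other 7 ligands of the list had at most 1 read in either library. Of the receptors, Fgfr2 was abundant in both (184.6 and 109.4) and Fgfr1 much lower than Fgfr2 in both (4.34 and 2.60), with ratios of 0.592 (0.575 to 0.610) and 0.598 (0.501 to 0.713), both close to the median gene. Pdgfra was 29.8-fold higher (26.7 to 33.3), and Erbb2, a receptor of the EGF family, had 435 and 7 reads and was 52.4-fold lower (25.2 to 131). Thus receptor genes with the largest differences were not those of the FGF receptors.

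Among adaptors and the kinase cascade no gene passed the 2-fold line upwards by the log2 rule as deposited, while 3 did when centred. Of 9 adaptors and Ras activators 5 were lower (55.6%, against 44.0% of all genes). On the centred scale 2 were higher (22.2%) and 4 lower (44.4%), where all genes gave 16.9% and 20.5%. The lower ones were led by the docking protein genes Gab2 (40 and 5 reads, 6.74-fold, 2.66 to 21.9) and Frs3 (155 and 0 reads, at least 43.5-fold). The 2 higher adaptors on the centred scale, named after their values were seen, were Shc1 (291 and 519 reads, a ratio of 2.12, 1.83 to 2.45) and Sos2, a Ras activator (574 and 638 reads, 1.32, 1.18 to 1.48). Of 10 measurable genes from Ras to ERK 5 were lower, a share near the background, but only 1 was lower when centred. Farthest was Araf, a Raf kinase gene (147 and 11 reads, 11.3-fold, 6.11 to 23.05), the gene that stayed lower when centred. The MEK gene Map2k2, named after its value was seen, was the higher one when centred (56 and 119 reads, a ratio of 2.52, 1.82 to 3.53). The ERK gene Mapk3 had 40 and 15 reads, an RPKM of 1.54 and 0.687. Its ratio of 0.445 (0.228 to 0.824) put it within 2-fold of the median gene.

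Other inhibitors of the pathway lay on both sides. Of 9 measurable genes, 2 passed the 2-fold line upwards (22.2%) and 4 downwards (44.4%), where all genes gave 8.96% and 44.0%. On the centred scale 3 did so upwards (33.3%) and 4 downwards (44.4%), where all genes gave 16.9% and 20.5%. The lower ones were led by Errfi1, an inhibitor of EGF family receptors (RPKM 19.8 and 1.23, 16.03-fold, 13.3 to 19.4), and Cbl, a ubiquitin ligase that removes activated receptors (29.2 and 5.43, 5.37-fold, 4.89 to 5.91). The higher ones as deposited, named after their values were seen, were Il17rd, which encodes the membrane inhibitor of FGF signalling called SEF (87 and 404 reads, 5.51-fold, 4.36 to 7.03), and Dusp9, another phosphatase of ERK (135 and 357 reads, 3.14-fold, 2.57 to 3.86). Higher only when centred was Nf1, the gene of neurofibromin, also named after its value was seen (78 and 174 reads, a ratio of 2.65, 2.02 to 3.50). Spred3, the third Spred gene, had 54 and 51 reads and an RPKM of 0.357 and 0.400.

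Of 8 measurable genes among other ETS factors and Cic, none was higher by the log2 rule as deposited. By that rule 3 were lower (37.5%, below the 44.0% of all genes). When centred, 2 were higher and 2 lower (25% each), where all genes gave 16.9% and 20.5%. The higher ones, named after their values were seen, were Etv6 (241 and 518 reads, a ratio of 2.55, 2.19 to 2.99) and Elk1 (92 and 121 reads, 1.56, 1.18 to 2.07). Etv3, an ETS repressor, had an RPKM of 9.10 and 0.392 (23.2-fold lower, 18.3 to 30.0). Ets2, a factor that mouse trophoblast needs, had 571 reads and none (at least 130-fold lower by the bound of its interval). Cic itself, named after its value was seen, had an RPKM of 21.3 and 6.81, a ratio of 0.319 (0.277 to 0.367). Of the other ERK-responsive transcripts 1 of 4 measurable genes was higher (25%, where all genes gave 8.96%). It was Egr1, an immediate early gene, with 3 and 373 reads and a ratio of 147.6 (50.1 to 719). Phlda1, a gene that growth factors induce, had an RPKM of 27.4 and 14.4, within 2-fold. Fos, another immediate early gene, had 9 and 5 reads.

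**Figure D4:**
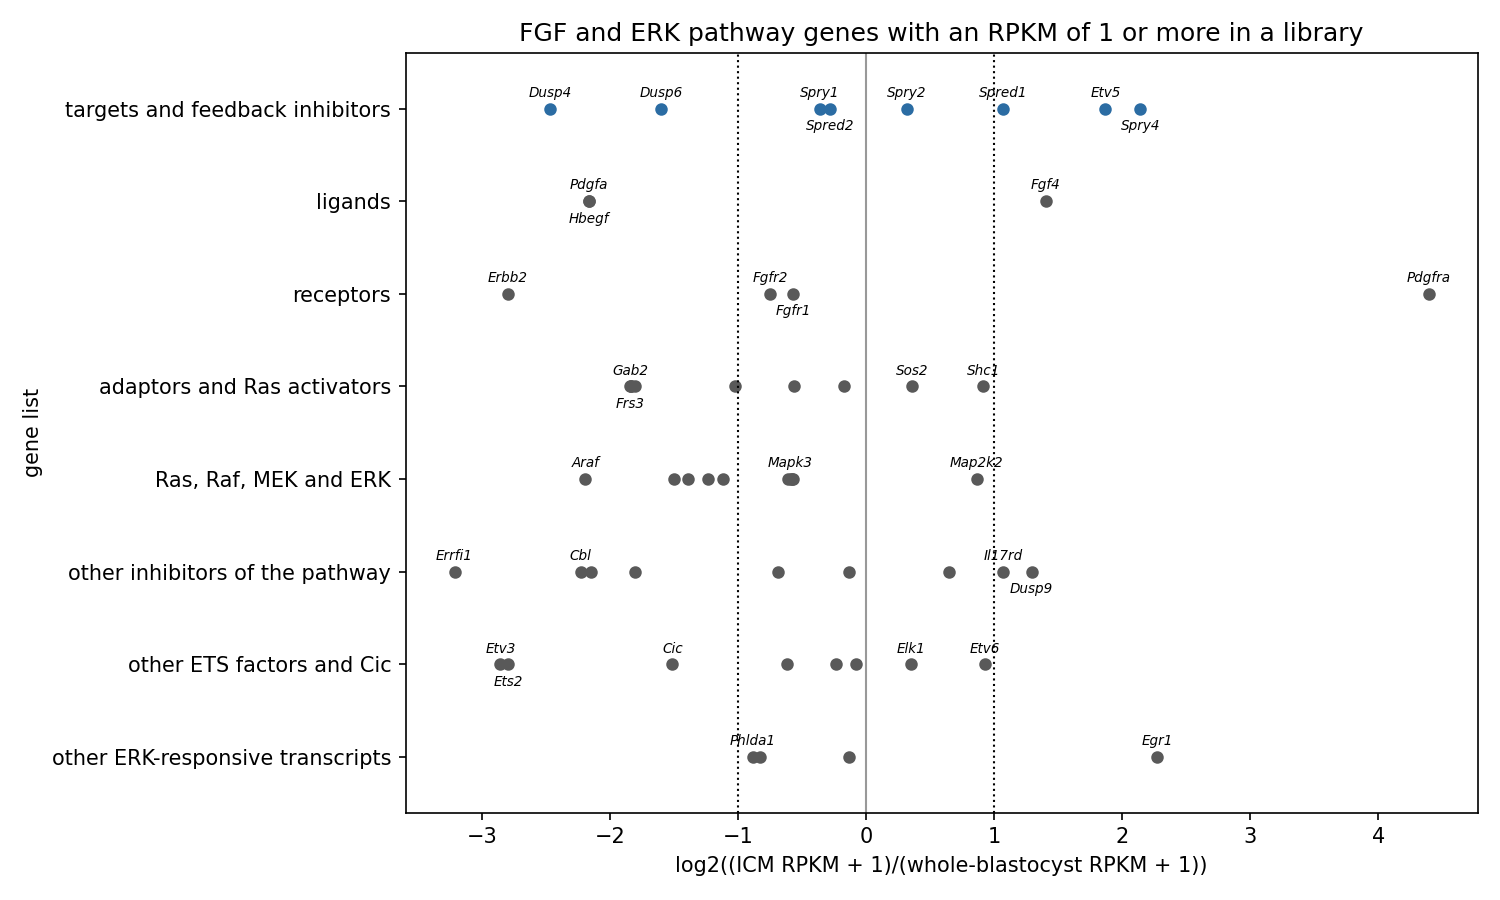
Log2 difference between ICM and whole-blastocyst RPKM (pseudocount 1) for the measurable genes of each list, 1 point per gene (points without a name are genes not described here), with dotted lines at 2-fold. Spry4, Etv5, Spred1, Fgf4, Pdgfra, Il17rd, Dusp9 and Egr1 lie right of the upper line.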

How the data were processed

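The authors' deposited table gives each gene's read count, a whole number, and its RPKM in 2 libraries. Per the labels' protocols, RNA was isolated with PicoPure, amplified with NuGEN Ovation RNA-Seq and made into SOLiD fragment libraries. The submitters' processing notes name build mm9. The sources used here do not give the aligner, the annotation, the use of strand or the treatment of multiply mapped reads. RPKM per count kept 1 ratio between libraries, which sets the ICM total behind the authors' RPKM at 0.842 of the whole-blastocyst total, compared with 0.445 for the listed reads. Which reads that total held is not given. Of the 9 genes, only Spry1 shares exon bases with another GENCODE M21 gene (Gm42922, opposite strand, 577 bases). Whether reads of the 2 were told apart in those bases depends on the use of strand.

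Symbols were matched after removal of trailing spaces, and older symbols through RefSeq synonyms. Log2 differences used a pseudocount of 1, which understates changes of low genes, over genes that reached an RPKM of 1 in either library. RPKM ratios carry exact conditional (Clopper-Pearson) 95% intervals from the counts, and within-library ratios exact conditional odds-ratio intervals. The cDNA was amplified and carried no molecular identifiers, so intervals and floors (3 reads per library) cover counting error only. Genes named were all 9 members, the 2 largest differences of each pathway list, and Fgf4, Fgfr1, Fgfr2 and Mapk3. Values of 2 further genes under this rule are not reported here. Members and lists were chosen with earlier results of these data known. Alternatives were other pseudocounts, filters and scalings. Computations used Python 3.11.15, numpy 2.4.6, pandas 2.3.3 and scipy 1.17.1 and were tested on simulated counts.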

Additional observations from a re-analysis of the deposited data

How the results depend on the processing

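No paired analysis was possible because each group has 1 library, and for the same reason no replicate could be left out. Of the 9 genes, 3 were higher and 2 lower as deposited. With a pseudocount of 5, or with a filter at an RPKM of 5, 1 was higher and 1 lower, since low genes are damped or dropped. Centring and quantile normalization, each with the pseudocount of 1, left 1 lower gene, Dusp4. TPM, quantile normalization and scaling to the listed reads (added after seeing the data) raised the higher genes to 4 by adding Spry2. Over all settings the log2 difference ran from 0.77 to 4.97 for Spry4, 1.13 to 3.13 for Etv5, 0.39 to 2.63 for Spred1, -2.89 to -1.58 for Dusp4 and -2.53 to -0.65 for Dusp6, so none of these 5 changed sign. Spry1 (-0.52 to 0.39) and Spred2 (-0.38 to 0.54) did, with the scaling.

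Among all genes, 805 higher and 3950 lower as deposited became 1516 and 1838 when centred, 1682 and 1892 with quantile normalization, 1718 and 2312 when scaled to the listed reads, 362 and 2590 with the filter at 5, and 221 and 1761 with a pseudocount of 5, and TPM gave 1978 higher. The scalings moved the median of all measured genes from -0.84 to between -0.19 and -0.08. Among the 47 other pathway genes, 5 higher became 11 with TPM or centring, 10 with quantile normalization or listed reads, 9 with a pseudocount of 0.1, 2 with the filter at 5 and 1 with a pseudocount of 5, and 20 lower became 13 with quantile normalization and 11 with a pseudocount of 5. Why a scaling moved a count was not tested. The Spry4 ratio rests on 11 reads in the whole blastocyst.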

Other observations

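The other genes named Dusp in the table, which encode dual-specificity phosphatases of several substrate classes and were chosen after seeing the data, number 22, of which 12 had an RPKM of 1 or more in a library. In the ICM 1 of these was at least 2-fold higher, 8 were lower and 3 within 2-fold, where 8.96% of all genes were higher and 44.0% lower. Relative to the median 4 were higher, 3 lower and 5 within, where all genes gave 16.9% and 20.5%. The higher one was Dusp9. Dusp14 was the most abundant in the whole blastocyst, with an RPKM of 45.05 and 10.5 in the ICM (4.28-fold lower, 3.89 to 4.72). Dusp16, a phosphatase of the stress kinases JNK and p38, had 13.7 and 2.01 (6.79-fold lower, 5.86 to 7.91), and Dusp10, of the same substrate class, had 206 and 30 reads (5.78-fold lower, 3.93 to 8.79). Dusp1, an immediate early phosphatase, had 16.8 and 4.09 (4.10-fold lower, 3.47 to 4.89). Dusp12 had 15.4 and 24.4, a ratio of 1.59 (1.35 to 1.87), and was the most abundant in the ICM. Dusp5, a further ERK phosphatase gene that ERK induces, had no read in either library, and Dusp7 had 10 and 2.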
